A study of Trichechus manatus latirostris with 11 samples.

Results

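The genes described here are the heat shock proteins, their co-chaperones and the heat shock factors of the Florida manatee, chosen by gene symbol. A row of the deposited table was taken as a member where the RefSeq symbol of its transcript record in the TriManLat1.0 assembly began with HSPA, HSPB, HSPD, HSPE, HSPH, HSP90, DNAJA, DNAJB, DNAJC, BAG or HSF followed directly by a digit. This gave 60 rows for 56 different symbols, out of 15298 rows, of which 10080 carried a RefSeq symbol. The rule uses symbols and no measured value, although it was set with earlier results of these data known. The RefSeq table holds 73 symbols of this form, and 17 of them had no row here, among them HSPA8, HSPB1, HSPB8, BAG4, BAG6, DNAJC2 and DNAJC10. The HSP90 genes have a letter after the 90, so this pattern does not reach them, and they are given beside the members.

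Heat shock proteins are chaperones that hold, fold and refold other proteins. The HSPA (Hsp70) proteins bind unfolded stretches in a cycle driven by ATP. The DNAJ (Hsp40) proteins bring them their substrates and start ATP hydrolysis, and nucleotide exchange factors such as the BAG and HSPH proteins end the cycle. The small HSPB proteins hold unfolded proteins without ATP, and HSPD1 forms the mitochondrial folding chamber. Some of these genes are transcribed at all times, whereas others are switched on by heat or other protein damage through the heat shock factors, of which HSF1 is the main one in mammals. A separate set serves the endoplasmic reticulum (ER), where secreted and membrane proteins fold, and is induced by the unfolded protein response rather than by HSF1.

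RNA was taken from the buffy coat, the layer of white cells and platelets in spun blood, of adult wild Florida manatees, depleted of globin and ribosomal RNA, and sequenced. The labels name 4 red tide samples, all from animals under treatment at Lowry Park Zoo after exposure to a bloom of the alga that makes brevetoxin, and 7 control samples. Of the controls, 4 came from Crystal River, 2 from the Indian River Lagoon and 1 from an animal at the zoo, which the study describes as recovering from pneumonia. The groups also differed in place and date of sampling, and some red tide animals had been in care for days when bled. The study describes immediate freezing for the red tide buffy coats but also transfer to RNAlater for each animal, and the labels give RNAlater. Exposure, care, place, date and any difference in storage therefore cannot be told apart.

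The table gives, for each row, the authors' mean of normalized counts, which are reads divided by the size factor of their library, for the whole series and for each of 2 groups, but no value of a library by itself. Weighting the group means by 4 and 7 returned the overall mean in each of the 15298 rows, so the first group is as large as the red tide group and the second as large as the controls. The columns do not name the groups, and the study reads the direction of this comparison the other way, with the second mean as the red tide group. By number of libraries the first mean matches the samples labelled red tide, and the study's direction conflicts with this. The conflict was not resolved here, so no direction with exposure is drawn from any value below. The means are called the 4-library mean and the 7-library mean. The ratio of these means carries no replicate error, so for abundant genes a difference is described and not tested, and a factor of 2 is used as a round size. For weakly expressed rows the whole reads of each library could be worked back from the mean. The size factors found in this way scale the counts of each library and are not its number of reads sequenced. They ran from 0.372 to 1.56 in the 4 libraries and from 0.702 to 1.73 in the 7. The libraries are named by size factor and are not linked to animals.

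RNA of marker genes for the cell types of the buffy coat also differed between the means. Of 7 neutrophil marker rows with a symbol, 6 were at least 2-fold higher in the 7-library mean, whereas MPO lay the other way (4.44 against 2.34). The levels of the 7 rows summed to 2026 against 12125, where the same doubt about which group is which applies. Of 3 platelet rows 2 were at least 2-fold higher in the 4-library mean (4134 against 1978, summed), as were 8 of 10 immediate early genes (17583 against 5266), the genes that answer a stimulus fastest. Summed monocyte markers (3 rows) stood at 1762 against 2411 and T cell markers (3 rows) at 363 against 499. B cell markers (2 rows) summed to 394 against 460 and erythroid markers (2 rows) to 182 against 486. The only NK cell row, PRF1, stood at 6.95 against 5.41. Most of the platelet sum was ITGA2B (3996 against 1919) and most of the monocyte sum LYZ (1243 against 1839). MS4A1 (370 against 415) made up most of the B cell sum and ALAS2 (168 against 467) of the erythroid sum. Of the 3 T cell rows, CD28 alone was higher in the 4-library mean (219 against 185). No marker row was at 0 in either mean. The part of these shifts in the values below was not tested, and in bulk RNA fewer cells of a type cannot be told apart from less RNA per cell.

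More heat shock protein and co-chaperone rows were higher in the 4-library mean (42 of 60, 70%) than in the 7-library mean, against 56.4% of all rows, and the chaperones of the ER had the highest ratios as a group. Of the 60 rows, 22 (36.7%) were at least 2-fold higher in the 4-library mean, against 23.9% of all rows of the table. Only 3 rows (DNAJB13, DNAJC5 and DNAJC12; 5%) were at least 2-fold higher in the 7-library mean, against 10.4% of all rows. The log2 of the 4-library mean divided by the 7-library mean, called the log2 ratio, had a median of 0.53 in the members and of 0.14 in all rows. Ratios of weak rows scatter widely, since a few reads decide them. Among rows with an overall mean of at least 10, 15 of 43 members (34.9%) were at least 2-fold higher in the 4-library mean against 12.3% of all such rows, and 2 of 43 (4.65%) were higher in the 7-library mean against 9.59%. With an overall mean of at least 100, a limit chosen after the values had been seen, these shares were 11 of 29 (37.9%) against 8.76%, and 0 of 29 against 8.09%. The median log2 ratio of these 29 rows was 0.68, and that of all 5238 rows of this level was -0.04.

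**Figure D1:**
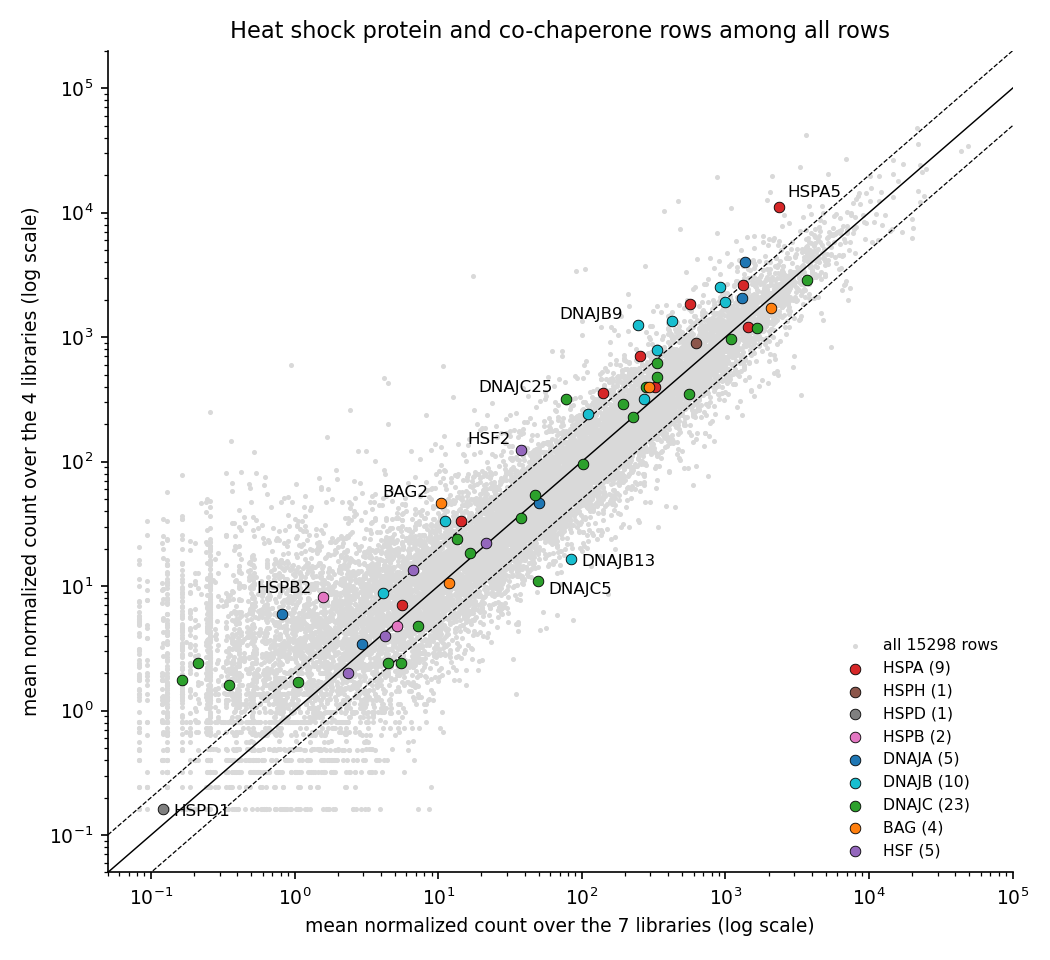
Mean normalized count over the 4 libraries (y axis) against that over the 7 libraries (x axis), both on log scales, for all 15298 rows (grey) and the 60 member rows, coloured by family with the number of rows in brackets. The solid line marks equal means and the dashed lines a factor of 2 either way; most abundant members lie on or above the solid line, with HSPA5 and DNAJB9 above the upper dashed line and DNAJB13 and DNAJC5 below the lower one.

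The families differed. HSPA had 5 of 9 rows at least 2-fold higher in the 4-library mean and none higher in the 7-library mean by that factor (median log2 ratio 1.21), and DNAJB had 7 of 10 rows against 1 (median 1.19). DNAJA had 2 of 5 rows (median 0.68). The largest family, DNAJC, had 4 of 23 rows higher by that factor in the 4-library mean and 2 of 23 in the 7-library mean, and its median was 0.16. BAG had 1 of 4 rows (median 0.12), HSF 2 of 5 (median 0.02) and HSPB 1 of 2, and HSPH1 and HSPD1 were the only rows of their families. The differences between families were not tested, because the table has no spread for most of these rows.

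**Figure D2:**
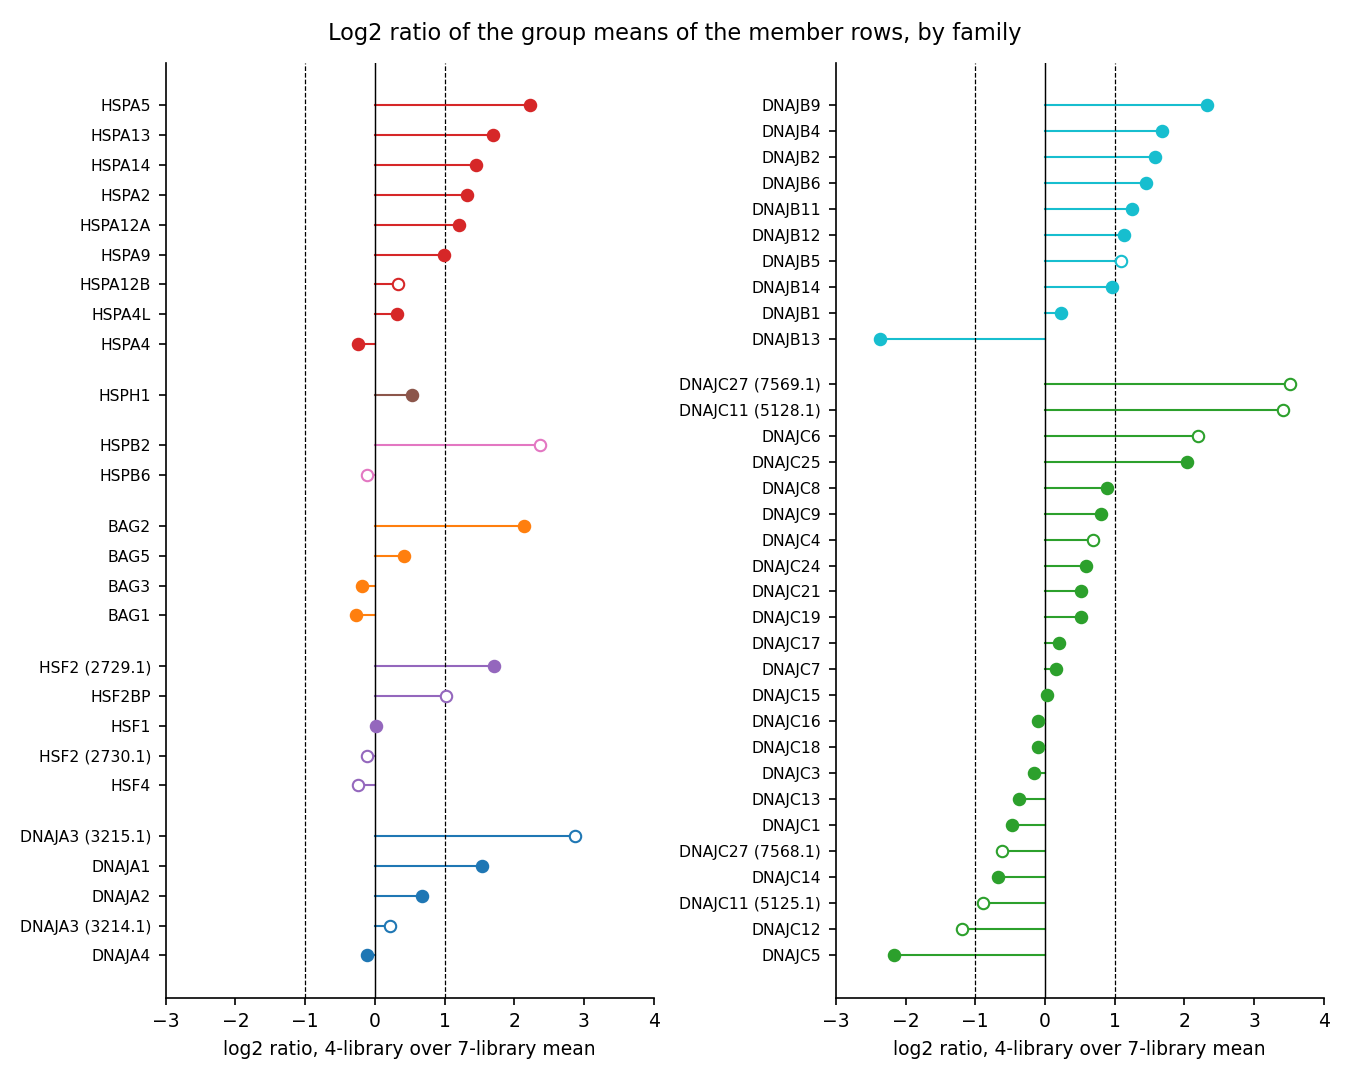
Log2 ratio (4-library mean divided by 7-library mean, x axis) for 59 member rows, grouped and coloured by family and sorted within each. HSPD1, with 1 read in each group, is left out. Filled points have an overall mean of at least 10 and open points a lower one, dashed lines mark a factor of 2, and digits in brackets tell apart records of the same gene; HSPA and DNAJB rows lie mostly to the right, with medians of 1.21 and 1.19, and DNAJC rows around 0.16.

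The ER chaperones stood highest as a group: 6 of 9 rows were at least 2-fold higher in the 4-library mean, none was higher in the 7-library mean by that factor, and the median log2 ratio was 1.26. HSPA5 (BiP, XM_004375665.1), the Hsp70 of the ER lumen, whose binding also keeps the ER stress sensors inactive, averaged 11101 normalized counts in the 4 libraries against 2374 in the other 7, a 4.68-fold difference (log2 ratio 2.23). Of all rows with an overall mean of at least 10, 3.13% had a ratio as high or higher. DNAJB9 (ERdj4, XM_004382583.1), a partner of HSPA5 that also serves the removal of misfolded proteins, stood at 1245 against 248, a 5.02-fold difference (log2 ratio 2.33), matched or exceeded by 2.92% of those rows. DNAJB9 thus had the highest ratio of the ER members, followed by HSPA5.

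HSPA13, an Hsp70-like protein of the ER and microsomes, was 3.24-fold higher in the 4-library mean (1848 against 570). DNAJB11 (ERdj3), a soluble partner of HSPA5 that binds unfolded chains itself, was 2.39-fold higher (792 against 332). DNAJB12, which is anchored in the ER membrane and sends misfolded membrane proteins for degradation, was 2.19-fold higher (243 against 111). DNAJC25, another membrane-bound J protein, had 320 against 77.9, a 4.11-fold difference. The related membrane protein DNAJB14 was just under the factor of 2, at 1926 against 993 (log2 ratio 0.96).

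Not all ER members lay on that side. DNAJC3 (p58IPK), which serves HSPA5 in the lumen and also restrains the kinase PERK, had 972 against 1089 (log2 ratio -0.16). DNAJC1 (ERdj1), which sits at the ribosome exit on the ER membrane, had 1190 against 1651 (log2 ratio -0.47). Outside the members, HSP90B1 (GRP94), the Hsp90 of the ER, had 2634 against 2913 (log2 ratio -0.15), and HYOU1 (GRP170), a nucleotide exchange factor of HSPA5, had 147 against 171 (log2 ratio -0.21). So the shift seen in HSPA5, DNAJB9 and DNAJB11 was not present in every ER chaperone. All of these means were too high for the reads of single libraries to be worked back, and no spread can be given for them.

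**Figure D3:**
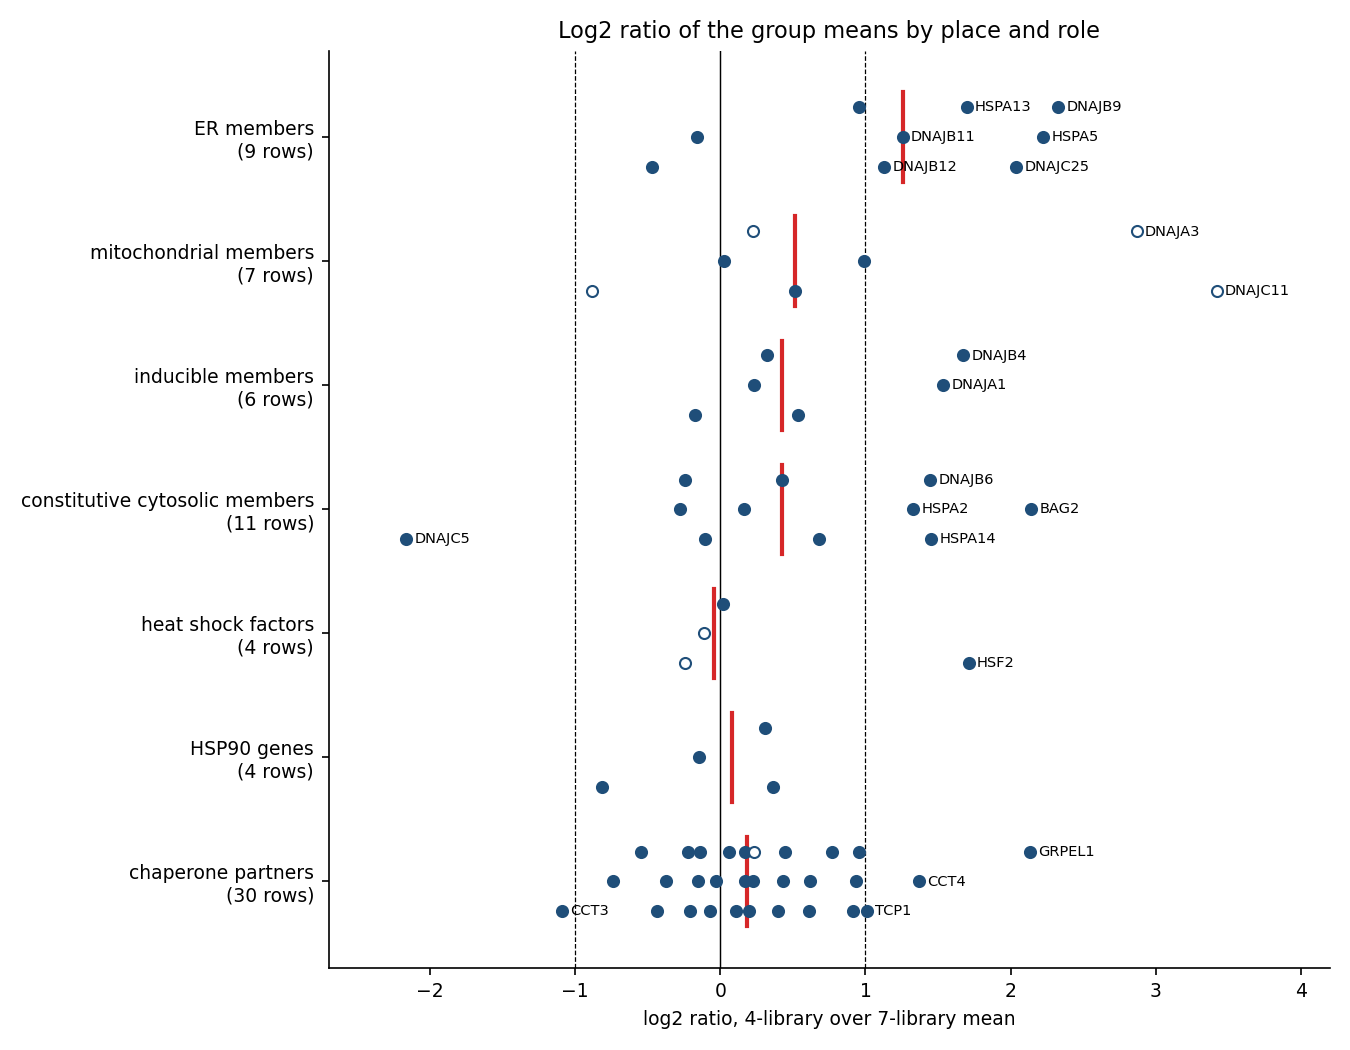
Log2 ratio (4-library mean divided by 7-library mean, x axis) by place and role in the cell, with members in the upper 5 groups and the HSP90 genes and other chaperone partners below; red bars mark group medians, dashed lines a factor of 2, open points an overall mean under 10, and genes past a factor of 2 are named. HSPD1 is left out of the mitochondrial and inducible groups. The ER group has the highest median, 1.26, and the HSP90 genes all lie within the dashed lines.

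The classical heat-inducible genes showed smaller differences, with a few exceptions. Of 14 such symbols 7 had a row, and 2 of these were at least 2-fold higher in the 4-library mean. HSPA1A, HSPA1B, HSPA1L, HSPA6, HSPE1, HSPB1 and HSPB8 had no row under these symbols, so HSPA1A, HSPA6 and HSPB1, strong heat responders in other mammals, were not analysed here. The median log2 ratio was 0.43 without HSPD1, which had 1 read in the 4 libraries and 1 in the 7 and therefore no usable ratio. The 2 genes past the factor of 2 both belong to the DNAJ family. DNAJA1 (Hdj2), a farnesylated cytosolic partner of Hsp70, had 3987 against 1375, a 2.90-fold difference (log2 ratio 1.54). DNAJB4, a cytosolic J protein close to DNAJB1, had 1346 against 421, a 3.19-fold difference (log2 ratio 1.68).

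The other inducible members lay within a factor of 2. DNAJB1 (Hsp40), the J protein most closely tied to HSF1 activity, had 320 against 273 (log2 ratio 0.23). HSPH1 (Hsp105), a nucleotide exchange factor, had 905 against 625 (log2 ratio 0.53), and its relative HSPA4L had 401 against 321 (log2 ratio 0.32). BAG3, which links Hsp70 to autophagy, had 10.5 against 11.9 (log2 ratio -0.18). In the 4 libraries of falling size factor BAG3 had normalized counts of 0.641, 5.84, 3.22 and 32.3, so that most of its mean came from the library of size factor 0.372. Leaving that library out gave a log2 ratio of -1.88. HSP90AA1, the inducible cytosolic Hsp90 gene, had 2013 against 1625 (log2 ratio 0.31), and the constitutive HSP90AB1 255 against 198 (log2 ratio 0.36). These Hsp90 genes share long stretches of sequence, as do the HSPA genes of the cytosol, and reads that match more than 1 gene were not counted, so their levels may be understated.

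The cytosolic members that are transcribed without stress covered a wider range. Of 14 symbols 11 had a row, 4 were at least 2-fold higher in the 4-library mean, 1 was higher in the 7-library mean by that factor, and the median log2 ratio was 0.42. This median was close to the 0.43 of the inducible members, and the difference was not tested. DNAJB6, which keeps aggregation-prone proteins in solution, had 2517 against 923, a 2.73-fold difference. HSPA14 (Hsp70L1), which works at the ribosome, had 699 against 255, a 2.74-fold difference. HSPA2, best known from the testis but also found in other tissues, had 354 against 141, a 2.51-fold difference, and is uncertain because of its likeness to other HSPA genes. HSPA8, the main constitutive Hsp70, had no row.

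BAG2 (XM_004386831.1), an inhibitor of the ubiquitin ligase CHIP that works with Hsp70, had 125 reads in the 4 libraries. From the largest to the smallest size factor these gave normalized counts of 18.6, 38.9, 35.5 and 91.5, with a mean of 46.1 ± 31.5 (SD, n = 4). The 7-library mean was 10.4, a 4.42-fold difference. All 4 libraries lay above that mean, and the one of size factor 0.372 stood apart at the top, yet the log2 ratio stayed between 1.57 and 2.40 with any of the 4 left out. The other BAG proteins of this list did not share the difference: BAG1, which also binds BCL2, had 1718 against 2082 (log2 ratio -0.28), and BAG5 had 397 against 296 (log2 ratio 0.42).

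DNAJC5 (cysteine string protein), a J protein of secretory vesicles, was the constitutive member on the other side. In the 4 libraries it had normalized counts of 27.6, 4.87, 3.22 and 8.07, a mean of 10.9 ± 11.3 (SD, n = 4), against a 7-library mean of 49.2, which was 4.49-fold higher. All 4 libraries lay below the 7-library mean. The library of size factor 1.56 was the highest, and without it the log2 ratio moved from -2.17 to -3.19. Most neutrophil marker rows also stood several-fold higher in the 7-library mean, and their part in this difference was not tested. 

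The remaining constitutive members were within a factor of 2. HSPA4 (Apg-2), a nucleotide exchange factor, had 1210 against 1435 (log2 ratio -0.25). DNAJA2 had 2080 against 1301 (log2 ratio 0.68), DNAJC7 18.5 against 16.5 (log2 ratio 0.16), and DNAJA4 46.9 against 50.4 (log2 ratio -0.11). DNAJA4 was even across the 4 libraries, with normalized counts of 44.3, 60.4, 37.1 and 45.7 around the 7-library mean.

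Of the mitochondrial symbols, 6 of 9 had a row, on 8 records, and only weakly expressed records passed the factor of 2. HSPA9 (mortalin), the Hsp70 of the mitochondrial matrix, was just under it at 2612 against 1317 (log2 ratio 0.99). DNAJC19, a part of the inner membrane import motor, had 398 against 278 (log2 ratio 0.52), and its relative DNAJC15 had 230 against 226 (log2 ratio 0.03). Among the 3 mitochondrial rows with a mean of at least 10 the median was 0.52. Outside the members, GRPEL1, the exchange factor that works with HSPA9, had 171 against 38.8, a 4.39-fold difference, and TRAP1, the mitochondrial Hsp90, had 11.8 against 20.8 (log2 ratio -0.82).

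DNAJA3 (Tid1), the J protein partner of HSPA9, was present on 2 records that behaved differently. For XM_004373215.1 the 4 libraries held 22 reads, with normalized counts of 4.49, 10.7, 3.22 and 5.38. The 7 libraries held 7 reads in 3 libraries, with normalized counts from 0 to 2.72 and a median of 0. All 4 libraries lay above all 7, the group means being 5.95 ± 3.29 (SD, n = 4) and 0.814 ± 1.10 (SD, n = 7). The exact permutation test (two-sided, 330 possible arrangements, on log2(normalized count + 1)) gave p = 0.00606, and 0.173 after Benjamini-Hochberg adjustment over the 4449 rows tested. For XM_004373214.1, the means were 3.45 and 2.96 and the exact permutation p was 0.952. The records are different transcripts of 1 gene, and reads that match both could not be placed uniquely.

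The mitochondrial outer membrane protein DNAJC11 also had 2 records. XM_004385128.1 had 8 reads in 2 of the 4 libraries and 2 reads in 1 of the 7. The ratio of its means was 10.7, with a 95% Poisson interval for the counting error of those 2 reads from 2.96 to 88.4, and the exact permutation p was 0.109. XM_004385125.1 lay the other way, at 2.41 against 4.44 (log2 ratio -0.88), and without the library of size factor 1.56, which held 10 of its 12 reads, the log2 ratio was -2.05. A few reads in single libraries thus set both values.

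The heat shock factors showed little difference apart from HSF2. HSF1, the main regulator of the heat shock genes, had 22.0 against 21.7 (log2 ratio 0.02). Its normalized counts in the 4 libraries were 23.1, 6.81, 25.8 and 32.3, spread on either side of the 7-library mean. HSF2, which binds the same elements and acts in development and together with HSF1, had 124 against 37.8 on XM_004382729.1, a 3.27-fold difference (log2 ratio 1.71). Its other record, XM_004382730.1, had 3.96 against 4.28, and overlapping groups. HSF4, known from the eye lens, had 5 reads in the 4 libraries and 23 in the 7, with a log2 ratio of -0.24 that became -1.45 without the library of size factor 0.372.

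HSF2BP matched the symbol pattern but encodes a binding partner of HSF2 that acts in meiosis, not a heat shock factor. It had normalized counts of 12.2, 13.6, 17.7 and 10.8 in the 4 libraries, all above its 7-library mean of 6.72. The ratio was at the edge of the factor of 2 (log2 ratio 1.02) and under it, at 0.86, without the library of size factor 0.620.

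**Figure D4:**
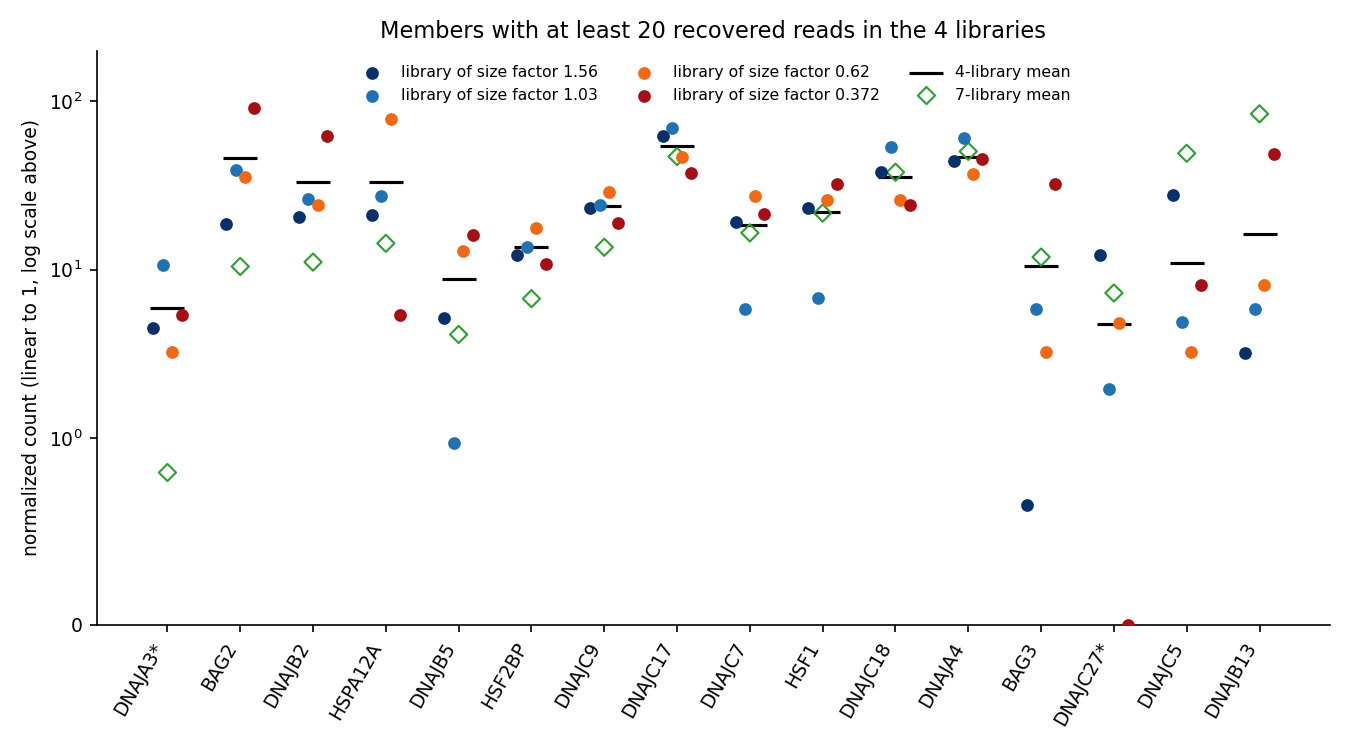
Normalized counts in each of the 4 libraries (points coloured by size factor), their mean (black bar) and the 7-library mean (green diamond) for the 16 members with at least 20 reads recovered in the 4 libraries, sorted by the ratio of the means; the y axis is linear to 1 and logarithmic above, and an asterisk marks 1 of 2 records of a gene. All 4 points lie above the diamond for DNAJA3, BAG2, DNAJB2, HSF2BP and DNAJC9 and below it for DNAJC5 and DNAJB13, and the library of size factor 0.372 is the highest in 6 of the 16.

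For the weakly expressed DNAJB13 and DNAJB2 the reads were known in the 4 libraries only, so whether 1 of the 7 sets their ratio is not known. DNAJB13, known from the axoneme of cilia and sperm flagella, had normalized counts of 3.21, 5.84, 8.06 and 48.4 in the 4 libraries and a 7-library mean of 84.3, which was 5.15-fold above their mean of 16.4. All 4 libraries lay below the 7-library mean, but the one of size factor 0.372 stood far from the others, and without it the log2 ratio went from -2.36 to -3.89. Of all rows with an overall mean of at least 10, 0.636% had a ratio as low or lower. DNAJB2, a J protein that delivers proteins to the proteasome, had 20.5, 26.3, 24.2 and 61.9 against a 7-library mean of 11.1. All 4 lay above that mean, and the log2 ratio of 1.58 stayed between 1.09 and 1.76 with any of the 4 left out.

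DNAJB5, a J protein of the cytosol and nucleus, rested on single libraries. It had 5.13, 0.974, 12.9 and 16.1 in the 4 libraries and from 0 to 17.1 in the 7 (median 1.81), so that the groups overlapped. At the top the overlap came from 1 of the 7 libraries (17.1, next 4.27). The exact permutation p was 0.236. The log2 ratio of 1.09 ran from 0.62 to 1.47 with 1 of the 4 left out, and from 0.87 to 2.17 with 1 of the 7 left out.

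In the DNAJC family 17 of 23 rows lay within a factor of 2, including the 3 with the highest counts. DNAJC13 (RME-8), which acts on endosomes, had 2860 against 3716 (log2 ratio -0.38). The next were DNAJC1 and DNAJC3, given above with the ER genes. DNAJC14 had 348 against 556 (log2 ratio -0.68), DNAJC8, a protein of the splicing machinery, 615 against 333 (log2 ratio 0.89), and DNAJC9, a histone chaperone, 23.8 against 13.6 (log2 ratio 0.81). DNAJC9 was even, with 23.1, 24.3, 29.0 and 18.8 in the 4 libraries, all above the 7-library mean.

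The other DNAJC rows past the factor of 2 were weak. DNAJC27 (XM_004377569.1) had 9 reads in 2 of the 4 libraries and 2 reads in 2 of the 7, a ratio of 11.4 with a 95% Poisson interval of 3.16 to 94.2 for those 2 reads, and an exact permutation p of 0.109. Its second record, XM_004377568.1, had 4.74 against 7.26 (log2 ratio -0.61), or -1.68 without the library of size factor 1.56. DNAJC6 (auxilin), which uncoats clathrin vesicles, had 4 reads, all in the library of size factor 0.620, and 4 reads in 2 of the 7, with an exact permutation p of 0.576. DNAJC12, a partner of the aromatic amino acid hydroxylases, had 10 reads in the 4 libraries and means of 2.42 against 5.54, and its log2 ratio of -1.19 ran from -1.52 to -0.78 with 1 of the 4 left out.

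The small heat shock proteins were all weak. HSPB2, a muscle protein that pairs with HSPB3, had normalized counts of 1.92, 1.95, 9.67 and 18.8 in the 4 libraries, and from 0 to 5.43 in the 7 (median 1.42). The library values overlapped, with 2 of the 4 above all 7. The means were 8.09 ± 8.03 (SD, n = 4) and 1.57 ± 1.95 (SD, n = 7), and the exact permutation test gave p = 0.0424, or 0.255 after adjustment. Without the library of size factor 0.372 the log2 ratio was 1.53 instead of 2.37. HSPB6 (Hsp20) had 4.74 against 5.14 with overlapping groups, and without the same library its log2 ratio moved from -0.12 to -1.48.

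The HSPA12 proteins, distant relatives of Hsp70, were weak as well. HSPA12A had 21.2, 27.3, 79.0 and 5.38 in the 4 libraries against a 7-library mean of 14.3. The library of size factor 0.620 stood highest and 1 library lay below the 7-library mean, and the log2 ratio of 1.21 was 0.32 without the highest library. HSPA12B, known from endothelial cells, had 7.05 against 5.58, with values from 1.28 to 18.8 in the 4 libraries and from 0 to 13.6 in the 7, and an exact permutation p of 0.658.

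**Figure D5:**
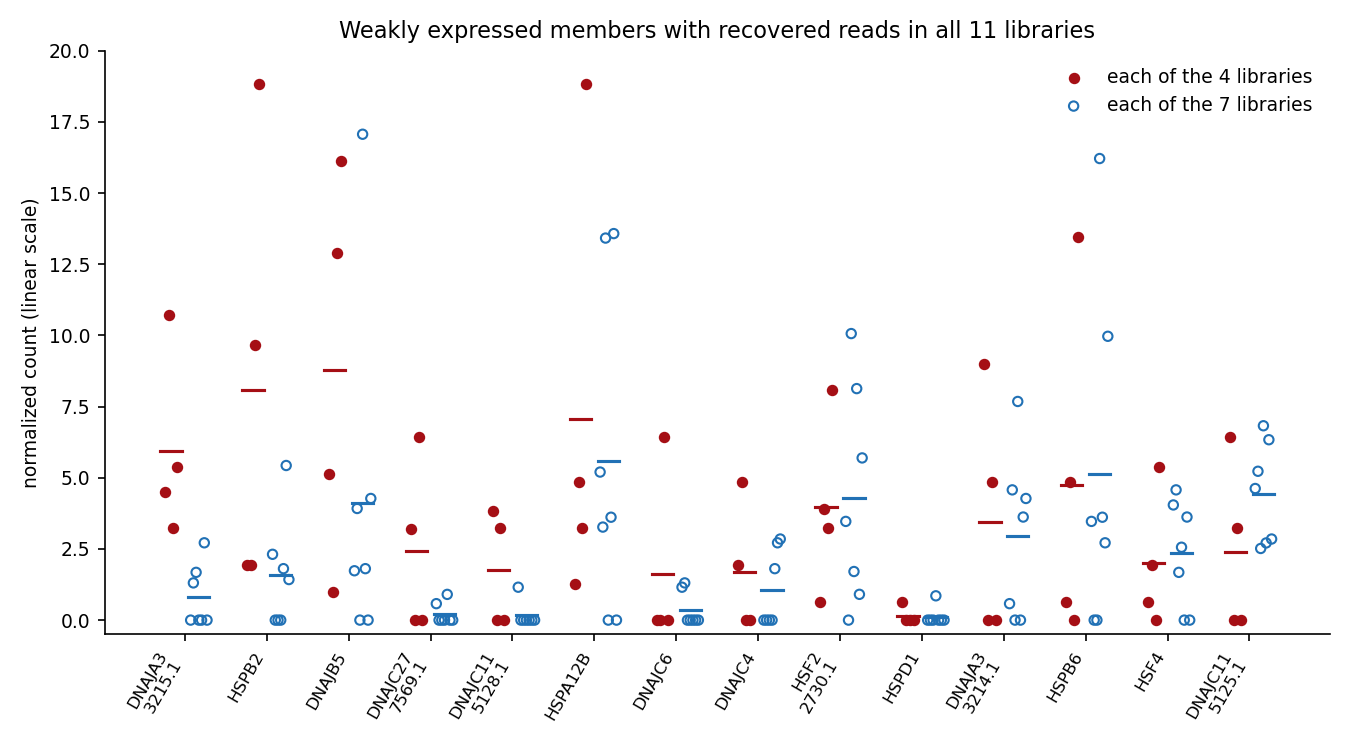
Normalized counts (y axis, linear) in each of the 4 libraries (filled red points) and each of the 7 (open blue points), with group means as bars, for the 14 weakly expressed member rows whose reads could be recovered in all 11 libraries; digits tell apart records of the same gene. The groups do not overlap for the DNAJA3 record at the left, where the 4 libraries range from 3.22 to 10.7 and the 7 from 0 to 2.72, and they overlap in the other rows.

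Only for 14 member rows could the reads of all 11 libraries, zeros included, be worked back and tested. All of these rows were weak, since the means searched reached at most 80 in the 4 libraries and 6 in the 7. These unequal limits let in rows high in the 4 libraries and shut out rows high in the 7. DNAJB5, HSPA12B and HSPB2 entered only through the wider limit, so the p of HSPB2 is not used as support. The shares of members and of all rows tested carry this selection and say nothing on direction. Of the 14 member rows, 2 (14.3%), DNAJA3 (XM_004373215.1) and HSPB2, had an exact permutation p under 0.05, against 18.3% of the 4449 rows of the table tested in the same way. After Benjamini-Hochberg adjustment 0 of the 14 members and 0 of all 4449 rows passed 0.05. The smallest exact permutation p that 4 against 7 libraries allow is 0.00303, and the smallest adjusted value over all rows was 0.145. In 1 of 14 members the groups did not overlap, against 2.85% of the rows tested. The abundant members that carried the differences between the means could not be tested in this way.

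Of the 25 members past the factor of 2, 13 had reads that could be worked back for the 4 libraries. With any of the 4 libraries left out, or any of the 7 where these were known, 8 of these 13 stayed past it (BAG2, DNAJA3 on XM_004373215.1, DNAJB2, DNAJB13, DNAJC5, DNAJC11 on XM_004385128.1, DNAJC27 on XM_004377569.1 and HSPB2), whereas DNAJB5, DNAJC6, DNAJC12, HSF2BP and HSPA12A did not. For BAG2, DNAJB2, DNAJB13 and DNAJC5 the reads of the 7 libraries were not known, so whether 1 of those sets their ratio is not known. DNAJC11 has no ratio without the only one of the 7 libraries that held its reads. The other 12, among them HSPA5, DNAJB9, HSPA13, DNAJC25, DNAJA1 and DNAJB4, had means too high for this, so whether 1 library sets their ratio is not known. The same leave-out count over all rows of the table is not given here. The 8 of 13 therefore describes these rows and is not read as a trait of heat shock genes. In the 16 members with at least 20 reads the highest library was that of size factor 0.372 in 6, 0.620 in 4, 1.03 in 4 and 1.56 in 2. Over the 5921 rows with as many reads these shares were 34.2%, 30.01%, 16.4% and 19.4%.

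The partners of these chaperones outside the symbol pattern were mostly within a factor of 2. All 4 HSP90 genes were (median log2 ratio 0.08), and so were 26 of 30 other partner rows (median 0.18), while 3 were higher in the 4-library mean by that factor and 1 in the 7-library mean. Besides GRPEL1 these were CCT4 (69.3 against 26.9), TCP1 (2596 against 1291) and, on the other side, CCT3 (59.3 against 127), which are subunits of the same cytosolic folding chamber. The 7 subunits of that chamber with a row thus lay on both sides (median 0.23). Set beside the medians of 1.26 for the ER members and 0.53 for all 60 heat shock rows, the partner median was lower, and this difference was not tested. Most rows of any kind also lay within a factor of 2, 7989 of the 10225 with an overall mean of at least 10. Of those rows 12.3% were at least 2-fold higher in the 4-library mean and 9.59% in the 7-library mean. Among the 29 partner rows of this level, 3 and 1 were. The partner counts are therefore not read as a trait of the partners.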

How the data were processed

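The sample labels gave the groups of buffy coat RNA, 4 red tide and 7 control. The authors trimmed reads with Cutadapt, mapped them to TriManLat1.0 with Bowtie2, removed duplicates, counted uniquely mapped reads per gene sequence and ran DESeq in the DEB tool. Which program counted the reads, and on which annotation release, is not given in the sources used here. Values as deposited are a signal, the authors' means of counts divided by DESeq size factors. The authors' fold change, log2 fold change, p-value and adjusted p-value columns hold their own comparison and were not used.

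Records were matched to RefSeq symbols without their version (65.9% of rows; 1658 also matched with it). The 4-library and 7-library means were identified from the overall mean (largest relative deviation 3.34e-09). Means of at most 80 in the 4-library column and of at most 6 in the 7-library column were searched for whole reads, and where a single combination met the mean (tolerance 6e-10 below 10, 6e-09 above), the reads were kept, in 9632 of 9634 and 4467 of 4505 rows. The search was tested on simulated data. Intervals cover counting error only. The study describes the samples as different animals, but the libraries here are not linked to them, and p-values measure the spread between these libraries. Two-sided exact permutation tests used mean log2(normalized count + 1), adjusted by Benjamini-Hochberg over all rows tested. With group means only, no model across genes was fitted.

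Genes were named by a fixed rule: every HSPA, HSPB, HSPD, HSPH, BAG and HSF row; DNAJ rows past 2-fold, the 3 most abundant of each DNAJ family, and those in the inducible and ER lists; the HSP90 genes; and partners past 2-fold. Other named rows (DNAJC4, DNAJC7, DNAJC8, DNAJC9, DNAJC14, DNAJC15, DNAJC19, HYOU1 and the second records of DNAJA3, DNAJC11 and DNAJC27) were chosen after their values were seen. The members and lists were chosen with earlier results of these data known. Alternatives concerned the fold limit, centring, a pseudocount, low means, repeated symbols and single libraries. Python 3.11.15, numpy 2.4.6, pandas 2.3.3 and scipy 1.17.1 were used.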

Additional observations from a re-analysis of the deposited data

Results flagged for a closer look

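In 32 groups of 4 or 7 libraries of the named members, the gap of the highest or lowest library to its neighbour was set against Dixon's 95% critical value. In 9 groups the highest library lay beyond it, where chance gives about 1 group in 20, and weak rows with many zeros reach it easily. The library of size factor 0.372 stood apart in BAG3 (32.3, next 5.84), DNAJB13 (48.4, next 8.06) and DNAJB2 (61.9, next 26.3). The library of size factor 0.620 held all reads of DNAJC6 in the 4-library group (6.45, the others at 0).

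In the 7-library group a single library stood apart in DNAJB5 (17.1, next 4.27), HSPB2 (5.43, next 2.31) and DNAJC11 on XM_004385128.1 (1.16, the others at 0). HSPD1 had a single read on either side, worth 0.641 among the 4 libraries and 0.853 among the 7, and was at 0 elsewhere. The cause of these values was not tested.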

How the results depend on the processing

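With 1.5-fold as the limit 29 members were higher in the 4-library mean and 6 in the 7-library mean, and with 3-fold 12 and 2, in place of 22 and 3. Subtracting the median log2 ratio of all rows (0.14) from each ratio lowered the members' median from 0.53 to 0.39 and left 19 members past 2-fold in the 4-library mean. The shares of all rows at 1.5-fold, at 3-fold and after centring are not given here. Whether the members exceed the table at these settings was therefore not tested. With an overall mean of at least 100, added after seeing the data, the counts were 11 and 0 of 29 and the median 0.68. With both means at most 6, 1 member (DNAJA3, XM_004373215.1) in place of 2 had an exact permutation p under 0.05, because HSPB2 was no longer tested. Adding 1 to both means lowered the log2 ratios of the weak rows DNAJA3 (XM_004373215.1) to 1.94, DNAJC11 (XM_004385128.1) to 1.25 and DNAJC27 (XM_004377569.1) to 1.49. Of 15 members under 2-fold with recovered reads of the 4 libraries (HSPD1 not counted), 6 passed it when some library was left out: BAG3, DNAJC4, DNAJC11, DNAJC27, HSF4 and HSPB6. The same count over all rows is not given here. No log2 ratio of a called member that could be formed turned its sign. DNAJC6 had all its reads of the 4-library group in a single library. Without that library no reads were left there, against a 7-library mean of 0.352. DNAJC6 then has no log2 ratio and lies on the other side. No paired analysis was possible because the table holds group means and the libraries recovered from them carry no replicate number. The tests are limited to weak rows, because reads could be worked back from low means only, and the abundant members have no replicate error.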

Other observations

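Gene symbols with more than 1 row in the table had lower means. The 835 rows of such symbols had a median overall mean of 11.6, against 40.5 for the 9245 rows of symbols with a single row. Among the members the 8 rows of DNAJA3, DNAJC11, DNAJC27 and HSF2 had a median of 3.42, against 223 for the other 52 rows. The cause was not tested.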
